A study of Mus musculus with 8 samples.

Results

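The BCL2 family genes that decide survival or death of a cell at its mitochondria were followed in activated mouse CD8+ T cells with and without LKB1. The 10 genes are Bcl2, Bcl2l1, Mcl1, Bcl2a1b, Bcl2a1d, Bcl2l11, Bax, Bak1, Bbc3 and Pmaip1, picked by exact symbol and for their roles, out of 24421 genes in the deposited count tables. CD8+ T cells are the lymphocytes that kill infected and tumour cells. Naive cells had been activated for 48 hours on plate-bound antibodies against CD3 and CD28, and RNA was counted by strand-specific sequencing of 3′ transcript ends. The control group was 4 libraries of LKB1 wild-type cells and the other group 4 libraries of LKB1-deficient cells, given the same stimulation. LKB1 is the product of Stk11, a kinase upstream of the energy sensor AMPK. The allele, the driver of the deletion, the deleted exons, the strain, the age of the animals and whether replicates came from separate animals are not stated by the labels. The p-values therefore measure the spread between these libraries, part of which may be technical.

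Pro-survival members (BCL2, BCL-XL from Bcl2l1, MCL1 and BCL2A1) hold back the effectors BAX and BAK1, which otherwise open pores in the outer mitochondrial membrane, release cytochrome c and start the caspase cascade. BH3-only proteins such as BIM (Bcl2l11), PUMA (Bbc3) and NOXA (Pmaip1) bind the pro-survival proteins and free or activate the effectors. In T cells BCL2 and BIM set the lifespan of resting and contracting populations, while BCL-XL and BCL2A1 are known as activation-induced survival proteins.

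Sequence at the starts of the members is shown first, for the forkhead letters near Bcl2l11 and Bbc3 and for the near identity of the Bcl2a1 copies. RefSeq promoter windows on GRCm38.p6, from 250 bases before to 50 bases after an annotated start, were matched for 9 of the 10 members, with 14 windows in all. The letters GTAAACA, a core of the site that FOXO forkhead factors bind, were searched on both strands and occurred in 2 of the 14 windows, 1 of Bcl2l11 and 1 of Bbc3. Across all RefSeq promoters of that length, 3.65% of 32851 windows and 4.05% of 27025 genes held them. The match in Bcl2l11 began 227 bases before the start, and that in Bbc3, on the opposite strand and so printed as its reverse complement, 167 bases before it. The STAT letters TTCNNNGAA were in none of the 14 windows and in 8.30% of all promoters, and the AP-1 letters TGANTCA were in the windows of Bcl2a1b and Bcl2a1d and in 7.81% of all. More members held the CRE letters TGACG, in windows of Bcl2, Mcl1, Bbc3, Bcl2a1b and Bcl2a1d and in 20.8% of all promoters. The E-box letters CACGTG were in windows of Bax and Bbc3 and in 7.15% of all. A match is a description of letters and no evidence of binding. The Bcl2l11 and Bbc3 windows with forkhead letters are on the plus strand, at chr2:128125788-128126087 and chr7:16310011-16310310, with the forkhead letters in capitals.
Bcl2l11: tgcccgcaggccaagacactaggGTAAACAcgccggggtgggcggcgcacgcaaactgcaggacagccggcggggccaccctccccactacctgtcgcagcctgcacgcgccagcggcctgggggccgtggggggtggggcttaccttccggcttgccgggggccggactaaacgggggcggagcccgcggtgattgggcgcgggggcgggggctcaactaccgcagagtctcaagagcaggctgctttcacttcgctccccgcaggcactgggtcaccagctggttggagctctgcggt
Bbc3: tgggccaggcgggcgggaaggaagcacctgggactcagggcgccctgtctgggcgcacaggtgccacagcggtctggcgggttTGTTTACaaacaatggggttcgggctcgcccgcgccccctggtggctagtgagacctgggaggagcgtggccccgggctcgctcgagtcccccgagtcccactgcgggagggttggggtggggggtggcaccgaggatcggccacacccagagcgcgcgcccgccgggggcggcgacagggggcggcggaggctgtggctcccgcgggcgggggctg

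Bcl2a1b and Bcl2a1d, copies of the gene for the survival protein BCL2A1 on chromosome 9, start with nearly the same promoter, and their windows are shown because reads of the copies are hard to keep apart. The Bcl2a1b window lies at chr9:89199023-89199322 on the plus strand and the Bcl2a1d window at chr9:88731801-88732100 on the minus strand. The windows are offset, and over their 250 shared bases 247 were the same (98.8%). Capitals mark 3 different bases and an insertion of 6 bases in Bcl2a1b, whose place within a repeat is arbitrary.
Bcl2a1b: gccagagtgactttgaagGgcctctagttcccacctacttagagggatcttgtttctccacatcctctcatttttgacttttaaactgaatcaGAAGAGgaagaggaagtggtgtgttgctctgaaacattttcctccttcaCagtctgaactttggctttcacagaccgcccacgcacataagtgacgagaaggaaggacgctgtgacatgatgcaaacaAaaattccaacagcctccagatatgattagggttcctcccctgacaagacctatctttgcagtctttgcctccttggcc
Bcl2a1d: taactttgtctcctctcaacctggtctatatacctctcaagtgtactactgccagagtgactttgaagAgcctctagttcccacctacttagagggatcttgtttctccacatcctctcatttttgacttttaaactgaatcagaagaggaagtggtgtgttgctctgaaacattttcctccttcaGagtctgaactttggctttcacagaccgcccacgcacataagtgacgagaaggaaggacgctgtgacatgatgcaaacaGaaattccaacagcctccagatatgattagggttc

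Gene counts came to 7090252 to 12211930 in control and 3454388 to 6356125 in LKB1-deficient libraries, so low genes are less precise in the latter. Levels below are counts per 1000000 counts (CPM) on library sizes scaled by TMM, a scaling that assumes most genes are unchanged. A gene is called where edgeR's quasi-likelihood test gives a Benjamini-Hochberg adjusted p of at most 0.05 over all 10396 genes tested. Of these, 1286 were called higher and 1051 lower with LKB1 deficiency, against 1023 and 1446 with upper quartile scaling and 829 and 1576 with total count scaling, which move the median of all genes from 0.00 to -0.10 and -0.16 on the log2 scale. LKB1-deficient replicates 2 and 4 stood apart on the first principal component, which held 56.4% of the variance (scores of 51.7 and 54.4, against 12.5 and 6.79 for replicates 1 and 3 and -37.9 to -21.7 for controls). Which calls ended when both were left out is given with the results. Xist was at 522 and 922 CPM in control replicate 4 and LKB1-deficient replicate 4 and at most at 1.69 elsewhere, and a term for it kept all 4 member calls reported below. High Xist marks female cells, so replicate 4 of each group did not come from the same animal as the other replicates. Stk11 was at 101, 67.8, 82.0 and 77.0 CPM in control replicates 1 to 4 and at 76.5, 70.8, 107 and 64.4 in LKB1-deficient replicates 1 to 4, with a log2 fold change of -0.03 ± 0.18 (adjusted p = 0.911). The deleted exons are not stated, so whether these 3′ counts lie outside the deleted part is unknown, and they check no genotype. Of 8 CD8+ T cell markers none was at 0, and Cd3d, Cd3g and Cd8a fell (log2 fold changes -1.12, -0.93 and -0.76). Cd2, Cd3e and Thy1 had positive values (0.24, 0.32 and 0.17), Cd5 and Cd8b1 negative ones (-0.28 and -0.48), and these 5 were not called.

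All 10 members passed the filter on low counts, with 18 to 3440 counts per library. LKB1 deficiency came with more Bcl2l1 and Bcl2 RNA and less Bcl2a1b and Bcl2l11 RNA, and 6 members were not called. Thus 2 of 10 were called higher and 2 lower, 40.0% in all, where 22.5% of all genes tested were called, 12.4% higher and 10.1% lower. The members were chosen with earlier results of these data known, so the 40.0% supports nothing beyond the members. Their median log2 fold change was -0.20 against 0.00 over all genes tested, with 3 positive and 7 negative values. Groups did not overlap for the 4 called members and overlapped for the 6 others, where 26.1% of all genes did not overlap. In bulk RNA, a change in RNA per cell and a change in the share of cells that carry it cannot be told apart.

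**Figure D1:**
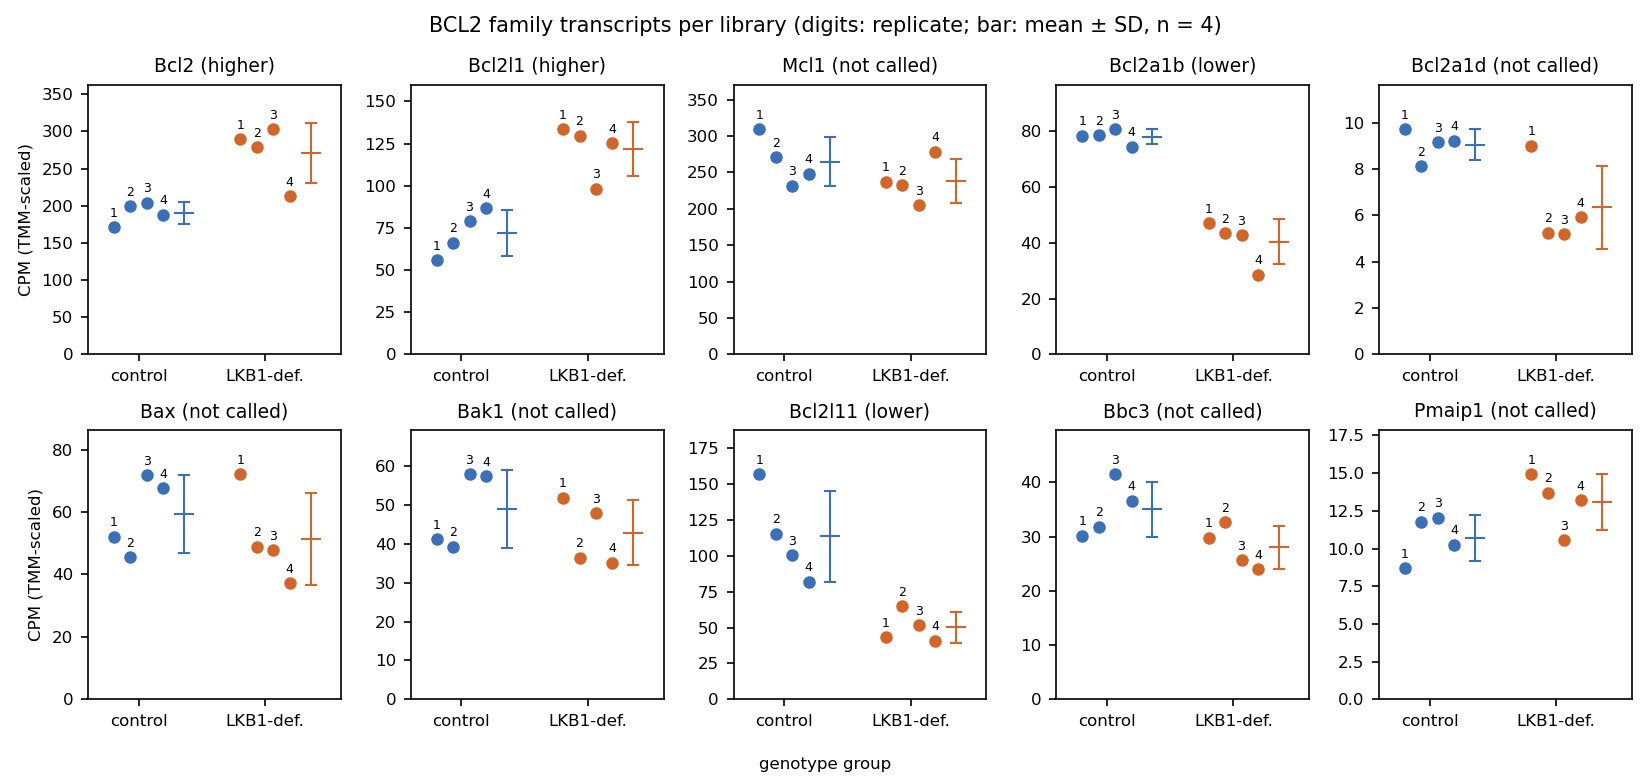
Level of each member in CPM (linear axes from 0, 1 panel per gene) for the 4 control and 4 LKB1-deficient libraries; points carry the replicate number and bars give the mean and SD. Bcl2 and Bcl2l1 lay higher, and Bcl2a1b and Bcl2l11 lower, in every LKB1-deficient library than in every control library.

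Among the pro-survival members, Bcl2l1, which encodes BCL-XL, rose 1.69-fold. Bcl2l1 (ENSMUSG00000007659.18, chr2:152780668-152831728 on the minus strand of mm10) was at 56.0, 66.2, 79.0 and 86.8 CPM in control replicates 1 to 4 and at 133, 129.7, 98.2 and 125 in LKB1-deficient replicates 1 to 4. The lowest LKB1-deficient library, replicate 3, lay above the highest control, replicate 4. Means were 72.0 ± 13.6 and 122 ± 16.0 CPM (SD, n = 4 each), a log2 fold change of 0.76 ± 0.17 (SE; adjusted p = 0.0136). The call held without each single library. It ended when LKB1-deficient replicates 2 and 4 were both left out, at a log2 fold change of 0.69 (adjusted p = 0.105).

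Bcl2, the survival protein of resting T cells, rose 1.42-fold. Bcl2 (ENSMUSG00000057329.7, chr1:106538178-106714274 on the minus strand) was at 171, 199, 204 and 188 CPM in the controls and at 289, 279, 303 and 213 in the LKB1-deficient libraries, each in the order of replicates 1 to 4. LKB1-deficient replicate 4 was close to the highest control, while the other 3 were well above all controls. The means of 190.5 ± 14.6 and 271 ± 39.9 CPM gave a log2 fold change of 0.51 ± 0.14 (adjusted p = 0.0332). This is the least stable of the 4 calls: it ended in 15 of 22 alternatives. Leaving out any 1 library other than LKB1-deficient replicate 4 ended it (log2 fold changes from 0.44, adjusted p up to 0.0801), as did the fit with the replicate number as a block (0.50, adjusted p = 0.0611). Without LKB1-deficient replicates 2 and 4 the value was 0.64 (adjusted p = 0.0524). With each library's trend on transcript length removed, the log2 fold change was 0.13 (adjusted p = 0.639). The longest annotated Bcl2 transcript has 7191 bases, the longest of any member.

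Mcl1, a short-lived survival protein that lymphocytes need continuously, was not called. Mcl1 (chr3:95658788-95663176 on the plus strand) was at 309, 271, 232 and 248 CPM in control and at 237, 232, 205 and 279 in LKB1-deficient replicates 1 to 4, and the ranges overlapped. The log2 fold change was -0.15 ± 0.15 (adjusted p = 0.459).

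Bcl2a1b, a copy of the NF-kB target BCL2A1 that activation induces, fell 1.93-fold. Bcl2a1b (ENSMUSG00000089929.1, chr9:89199209-89207827 on the plus strand) was at 78.4, 78.6, 80.6 and 74.4 CPM in control replicates 1 to 4 and at 47.0, 43.4, 42.7 and 28.6 in LKB1-deficient replicates 1 to 4. The controls lay within a narrow band, and even the highest LKB1-deficient library, replicate 1, was far below it. Means were 78.0 ± 2.58 and 40.4 ± 8.11 CPM, with a log2 fold change of -0.95 ± 0.15 (adjusted p = 0.00536). It was called lower in all 21 alternatives that keep the copies apart (log2 fold changes from -1.10 to -0.59, adjusted p at most 0.0370). The value nearest to 0 came with the length trend removed, and without LKB1-deficient replicates 2 and 4 it was -0.80.

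Bcl2a1d (ENSMUSG00000099974.1, chr9:88723285-88731914 on the minus strand) was counted far less often, at 9.70, 8.12, 9.16 and 9.22 CPM in control and at 9.0, 5.25, 5.19 and 5.93 in LKB1-deficient replicates 1 to 4. LKB1-deficient replicate 1 lay among the controls and the other 3 below them. The log2 fold change was -0.53 ± 0.21 and was not called (adjusted p = 0.0894). Without LKB1-deficient replicate 1 it was called, at -0.73 (adjusted p = 0.0244). It was -0.39 without LKB1-deficient replicates 2 and 4, -0.18 with the length trend removed and -0.14 at equal depth (adjusted p = 0.397, 0.536 and 0.835). LKB1-deficient libraries held 18 to 33 counts of this gene.

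The low Bcl2a1d count has to be read beside the sequences of the copies printed above. Their longest annotated transcripts were the same at 99.1% of 817 aligned bases, with 7 different. Of the windows of 50 bases in the last 300 bases, where 3′ reads fall, 25.9% of those of Bcl2a1b and 5.18% of those of Bcl2a1d occurred in no other copy. How the authors' counting treated reads that match several copies is not stated by the labels, so the split between the copies is uncertain. Control libraries had 2.92 to 3.50 alignments to several places per gene count and LKB1-deficient libraries 2.21 to 2.65; the part of this difference in the Bcl2a1 values was not tested. With the 4 copies summed before the fit, the log2 fold change was -0.89 (adjusted p = 0.00571). The other copies had almost no counts: 5 in all controls and 2 in all LKB1-deficient libraries for Bcl2a1a, and 0 and 1 for Bcl2a1c.

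The effectors were not called. Bax (chr7:45461697-45466898 on the minus strand), which moves to mitochondria on activation, was at 52.1, 45.6, 71.8 and 67.5 CPM in control and at 72.0, 49.0, 47.7 and 37.2 in LKB1-deficient replicates 1 to 4 (log2 fold change -0.20 ± 0.22, adjusted p = 0.505). Bak1 (chr17:27019810-27029009 on the minus strand), which sits in the outer mitochondrial membrane, was at 41.1, 39.2, 57.7 and 57.3 CPM in the controls and at 51.8, 36.4, 47.8 and 35.0 in the LKB1-deficient libraries, in the same order (log2 fold change -0.19 ± 0.19, adjusted p = 0.478). The groups overlapped for both. In both genes control replicates 3 and 4 were high among the controls and LKB1-deficient replicate 4 was the lowest of all libraries. Without LKB1-deficient replicates 2 and 4 the log2 fold changes were 0.01 for Bax and 0.03 for Bak1.

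Among the BH3-only members, Bcl2l11, which encodes the activator BIM, fell 2.26-fold, the largest difference of the 10. Bcl2l11 (ENSMUSG00000027381.16, chr2:128126038-128162547 on the plus strand) was at 156, 115, 100.3 and 82.0 CPM in control replicates 1 to 4 and at 43.3, 65.0, 51.5 and 40.7 in LKB1-deficient replicates 1 to 4. The controls varied widely, with replicate 1 highest, and the highest LKB1-deficient library, replicate 2, lay below the lowest control, replicate 4. Means were 113 ± 31.7 and 50.1 ± 10.9 CPM, with a log2 fold change of -1.18 ± 0.22 (adjusted p = 0.00825). The call held without each single library (log2 fold changes from -1.32 to -0.99, adjusted p up to 0.0309). Without LKB1-deficient replicates 2 and 4 together the value was -1.25 and was no longer called (adjusted p = 0.0527).

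Bbc3, the gene of the p53 target PUMA, was not called. Bbc3 (chr7:16308393-16318205 on the plus strand) was at 30.2, 31.8, 41.5 and 36.6 CPM in control and at 29.8, 32.6, 25.7 and 24.0 in LKB1-deficient replicates 1 to 4, with a log2 fold change of -0.33 ± 0.15 (adjusted p = 0.138). LKB1-deficient replicate 2 lay above control replicates 1 and 2, so the groups overlapped. Pmaip1, the gene of NOXA, which binds MCL1 and BCL2A1, was at 8.71, 11.8, 12.0 and 10.3 CPM in the controls and at 14.9, 13.7, 10.5 and 13.2 in the LKB1-deficient libraries, in the same order. Its log2 fold change of 0.28 ± 0.17 was not called (adjusted p = 0.253), and LKB1-deficient replicate 3 lay within the control range. Of the 2 members with forkhead letters in a printed window, Bcl2l11 was called and Bbc3 was not. The forkhead factor gene Foxo1 had a log2 fold change of 0.23 (adjusted p = 0.278), and Foxo3 was too low to be tested, at 0.629 and 0.733 CPM.

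Of the other BCL2 family genes, 8 of 16 passed the filter and none was called by edgeR (2 had an unadjusted p under 0.05, and DESeq2 and limma-voom called 0 each). Their median log2 fold change was -0.28, with 1 positive and 7 negative values. Bad, a BH3-only gene whose protein is held by growth factor signalling, was at 27.0, 23.0, 26.9 and 35.3 CPM in control and at 22.5, 19.5, 22.3 and 22.1 in LKB1-deficient replicates 1 to 4. All LKB1-deficient libraries lay below all controls, but the log2 fold change of -0.37 ± 0.15 was not called (adjusted p = 0.0997). Bnip3l, a mitophagy receptor, was at 128, 121, 170.0 and 142 CPM in the controls and at 100.2, 48.1, 129.7 and 55.8 in the LKB1-deficient libraries, in the same order, lowest in LKB1-deficient replicates 2 and 4 (log2 fold change -0.74 ± 0.29, adjusted p = 0.0837). Bnip3l was called without LKB1-deficient replicate 3 (-1.05, adjusted p = 0.0175) and with the replicate block (-0.85, adjusted p = 0.0357), and stood at -0.28 without LKB1-deficient replicates 2 and 4 (adjusted p = 0.410). Bid, which links death receptors to mitochondria, had a log2 fold change of -0.18 ± 0.13 (adjusted p = 0.328), and Bcl2l2, the gene of BCL-W, one of -0.26 ± 0.20 (adjusted p = 0.361). Bnip3, Bcl2l12, Bcl2l13 and Bcl2l14 had values from -0.29 to 0.01.

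Untested for low counts were Bmf, Bik, Hrk, Bok, Bcl2l15, Bcl2l10 (0 counts in every library) and the Bcl2a1a and Bcl2a1c copies. Bmf, a BH3-only gene, had 19, 7, 7 and 8 counts in control replicates 1 to 4, against 1, 0, 1 and 0 in the LKB1-deficient group, so the groups did not overlap in CPM (0.530 at the lowest in the controls and 0.281 at the highest in the LKB1-deficient libraries). Without a filter on low counts it was called lower (adjusted p = 0.0388).

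**Figure D2:**
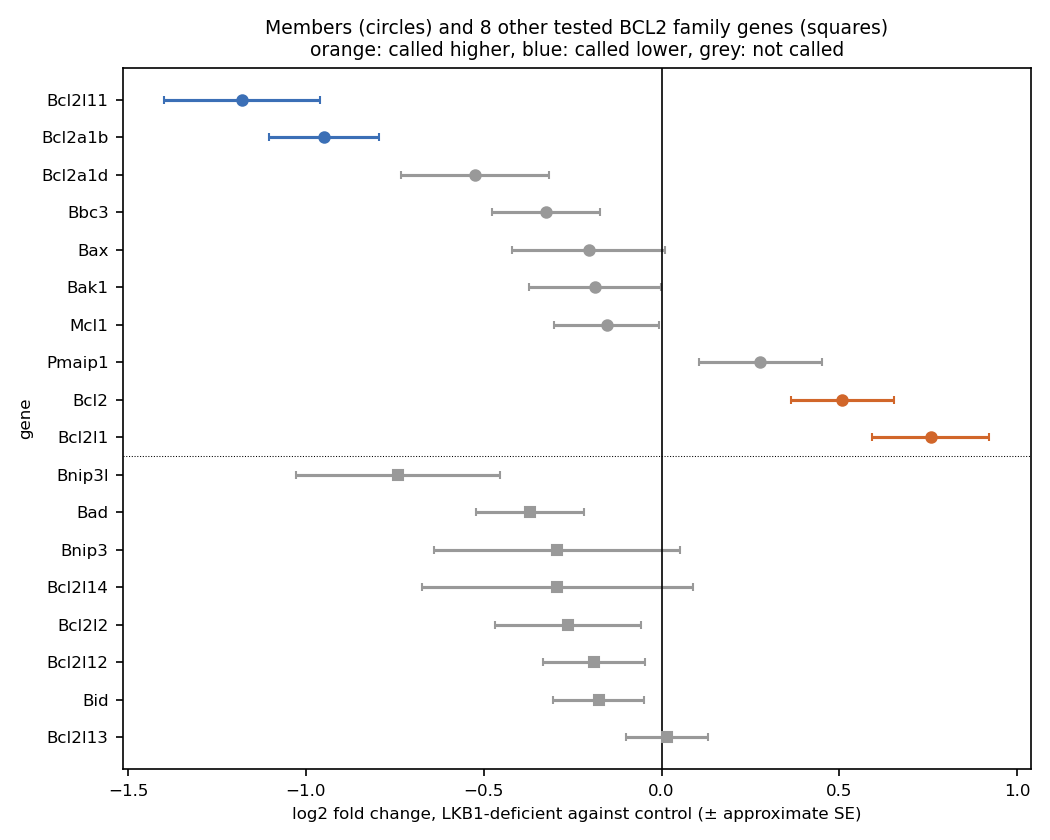
Log2 fold change of LKB1-deficient against control libraries, with its approximate SE, for the 10 members (circles) and the 8 other tested family genes (squares); orange marks genes called higher and blue genes called lower. Bcl2l1 and Bcl2 lie right of 0 in orange and Bcl2a1b and Bcl2l11 left of 0 in blue, while all squares are grey.

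Since a BH3-only protein acts by binding a survival partner, the counts of such partners were also set against each other within each library, which needs no scaling between libraries. These ratios are of 3′ counts, were not tested, and say nothing of protein. The count ratio of Bcl2 to Bcl2l11 was 1.09, 1.73, 2.03 and 2.29 in control replicates 1 to 4, against 6.68, 4.29, 5.88 and 5.23 in LKB1-deficient replicates 1 to 4. Every LKB1-deficient ratio was above every control ratio, which follows from the levels above, where neither gene overlapped between groups. The mean log2 ratios differed by 1.66, or 3.16-fold. The ratio of Bcl2l1 to Bcl2l11 was 0.358, 0.575, 0.787 and 1.06 in the controls, against 3.08, 2.0, 1.91 and 3.08 in the LKB1-deficient libraries. The groups were again without overlap, for the same reason, and 3.81-fold apart. Over the 9 alternatives run for ratios (each library left out and equal depth), these log2 differences were 1.44 to 1.80 and 1.65 to 2.17.

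The pairs of MCL1, BCL2A1 and NOXA went the other way or overlapped. The summed Bcl2a1b and Bcl2a1d counts stood at 10.1, 7.37, 7.46 and 8.15 per Pmaip1 count in control and at 3.75, 3.55, 4.54 and 2.61 in LKB1-deficient replicates 1 to 4. Here every LKB1-deficient ratio was below every control ratio, with a log2 difference of -1.21. The ratio of Mcl1 to Pmaip1 ran from 19.3 to 35.5 in the controls and from 15.9 to 21.1 with LKB1 deficiency, which overlapped (log2 difference -0.45). Mcl1 to Bak1 differed by 0.03 on the log2 scale and Bcl2 to Bax by 0.72, both with overlapping groups.

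**Figure D3:**
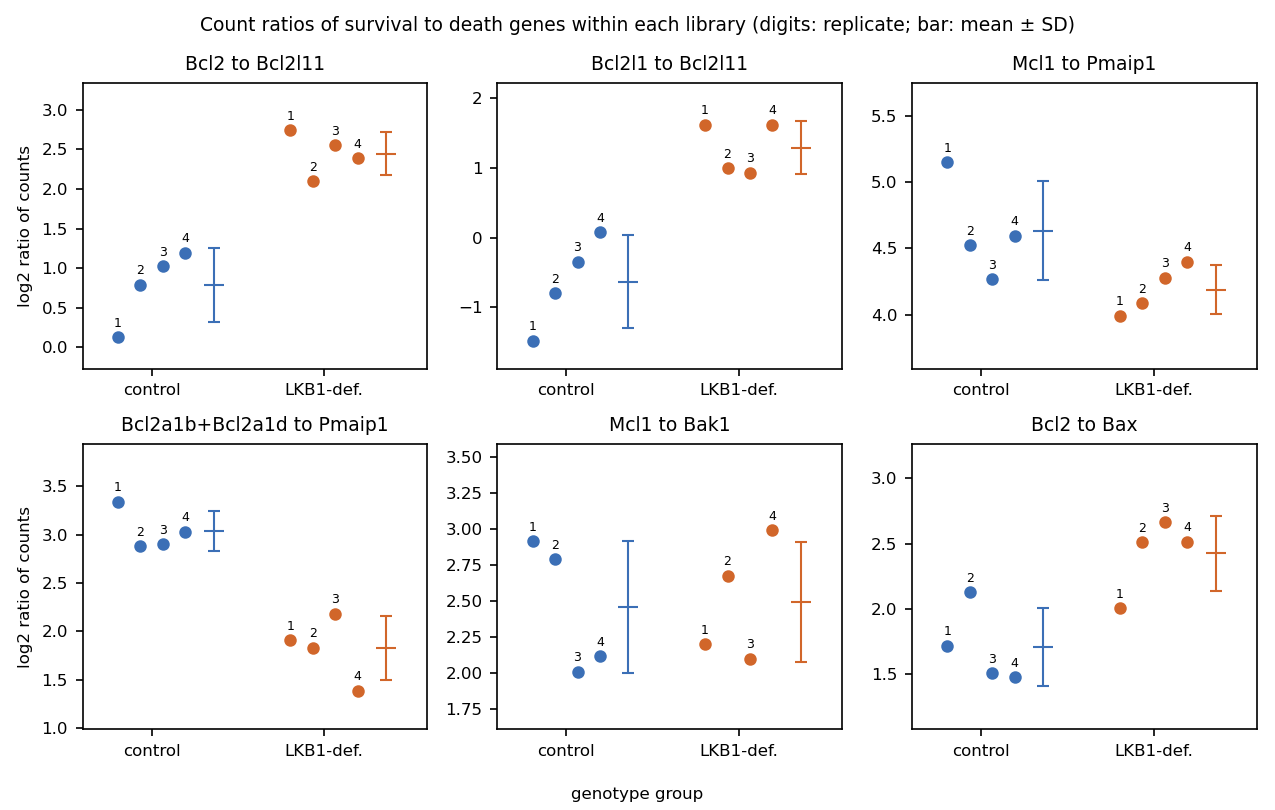
Log2 ratio of the counts of a survival gene and a death gene within each library, 1 panel per pair, for 4 control and 4 LKB1-deficient libraries; digits give the replicate and bars the mean and SD. Bcl2 and Bcl2l1 relative to Bcl2l11 are higher, and the summed Bcl2a1 copies relative to Pmaip1 lower, in every LKB1-deficient library. The separation of the Bcl2l11 pairs follows from the separate levels of their genes.

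Downstream of the pore, cytochrome c assembles the apoptosome, which activates executioner caspases. Of 11 genes tested in a list of cytochrome c, the apoptosome, caspases and other death factors, 0 rose and 1 fell, below the 22.5% of all genes called. Their median log2 fold change was 0.01. Casp2, an initiator caspase linked to DNA damage and chromosome imbalance, fell from 31.1 ± 3.37 to 21.4 ± 2.11 CPM (a log2 fold change of -0.54, adjusted p = 0.0206). Aifm1, the apoptosis-inducing factor, was at 115 ± 17.9 and 116 ± 13.8 CPM (log2 fold change 0.01, adjusted p = 0.957). The Casp2 call ended when control replicate 3 or 4, or replicate 2 or 4 of the LKB1-deficient group, was left out (adjusted p up to 0.0608), and at equal depth (-0.38, adjusted p = 0.178).

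Inhibitor of apoptosis proteins block caspases and are themselves antagonised by proteins that leave the mitochondria with cytochrome c. Of 7 such genes tested, 2 inhibitors rose and 1 antagonist fell (median log2 fold change 0.07), beside 22.5% of all genes called. Xiap, the direct caspase inhibitor, rose from 64.4 ± 12.5 to 99.5 ± 14.6 CPM (a log2 fold change of 0.63, adjusted p = 0.0262). Birc6, a giant ubiquitin ligase of the family, went from 111 ± 42.8 to 252 ± 117 CPM (1.19, adjusted p = 0.0426), with overlapping groups and the highest levels in LKB1-deficient replicates 2 and 4. Diablo, which encodes the antagonist SMAC, fell from 57.6 ± 4.76 to 41.3 ± 4.04 CPM (-0.48, adjusted p = 0.0237). Birc5 and Htra2, the genes of survivin and a mitochondrial protease, had log2 fold changes of -0.18 and 0.21 (adjusted p = 0.274 and 0.395). The calls of all 3 ended when control replicate 3 or 4, or replicate 2 or 4 of the LKB1-deficient group, was left out, and those of Xiap and Birc6 also without control replicate 1 (adjusted p up to 0.120). With the length trend removed the log2 fold changes were 0.28 for Xiap and 0.40 for Birc6, neither called. Without LKB1-deficient replicates 2 and 4 together they were 0.52 for Xiap, 0.51 for Birc6 and -0.39 for Diablo (adjusted p = 0.170, 0.420 and 0.145). The call of Xiap also ended with total count scaling (adjusted p = 0.0573) and that of Birc6 with limma-voom and with no filter (0.0503 and 0.0815). A term for the sample identifier prefix or for high Xist ended the Birc6 call as well (adjusted p = 0.0660 and 0.0618). That of Diablo ended with identifiers starting with EU only (adjusted p = 0.0533).

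The death receptor arm joins the mitochondrial pathway from the cell surface through caspase-8. Here 3 of 9 tested genes rose and 1 fell (median log2 fold change 0.11), beside 22.5% of all genes called. Cflar, which encodes the caspase-8 inhibitor c-FLIP, was at 47.3, 65.2, 45.3 and 46.4 CPM in control and at 126, 154, 87.7 and 158 in LKB1-deficient replicates 1 to 4. All LKB1-deficient libraries lay above all controls, replicates 2 and 4 highest, for a log2 fold change of 1.36 ± 0.20 (adjusted p = 0.00404). Fas, the receptor itself, was at 39.7, 38.9, 39.3 and 42.7 CPM in the controls and at 26.4, 23.6, 21.1 and 18.6 in the LKB1-deficient libraries, in the same order, without overlap. Its log2 fold change was -0.84 ± 0.13 (adjusted p = 0.00506). The calls of Cflar and Fas held in all 22 alternatives, at 1.06 and -0.76 without LKB1-deficient replicates 2 and 4. Tnfrsf10b, the receptor of TRAIL, rose from 4.04 ± 0.603 to 8.51 ± 2.18 CPM and Fasl, the ligand of Fas, from 25.1 ± 6.36 to 41.6 ± 5.71 (log2 fold changes 1.06 and 0.73, adjusted p = 0.0144 and 0.0261). The call of Fasl ended when control replicate 2 or replicate 4 of the LKB1-deficient group was left out (adjusted p = 0.0552 and 0.0759), and with total count scaling (0.0659). Without LKB1-deficient replicates 2 and 4 together Tnfrsf10b was at 0.76 and Fasl at 0.70, neither called. Casp8 and Ripk1, the caspase and kinase of the receptor complex, had log2 fold changes of 0.11 and 0.49 and were not called (adjusted p = 0.571 and 0.0936).

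MCL1 protein is turned over by ubiquitin ligases and spared by a deubiquitinase, so genes of that step were set beside the Mcl1 count. Of 7 tested, 4 rose and 0 fell, beside 22.5% of all genes called. The median log2 fold change of the 7 was 0.94 against 0.00 over all genes. They do not act in 1 direction: Huwe1 and Fbxw7 encode ligase components that mark MCL1 for degradation, Gsk3b a kinase that primes it, and Usp9x the deubiquitinase that stabilises it. Usp9x was at 32.3, 32.6, 8.55 and 10.5 CPM in control and at 34.0, 105, 81.1 and 77.4 in LKB1-deficient replicates 1 to 4, the lowest of the latter close to the highest control (log2 fold change 1.82 ± 0.47, adjusted p = 0.0237). Huwe1 was at 119, 124, 80.8 and 82.0 CPM in the controls and at 159, 311, 164 and 409 in the LKB1-deficient libraries, in the same order, with LKB1-deficient replicates 2 and 4 far above the rest (log2 fold change 1.36 ± 0.31, adjusted p = 0.0159). Fbxw7 and Gsk3b rose 1.98-fold and 1.92-fold (adjusted p = 0.0123 and 0.00998). Ppp2r1a, a phosphatase subunit, and Trib1, a pseudokinase, had log2 fold changes of 0.08 and 0.57 and were not called (adjusted p = 0.681 and 0.263). Leaving out control replicate 3 lowered the count of risen genes to 2, and leaving out LKB1-deficient replicates 2 and 4 together lowered it to 0, with log2 fold changes of 0.67 for Huwe1, 0.68 for Fbxw7, 0.73 for Gsk3b and 1.47 for Usp9x. The Usp9x call also ended when control replicate 4, or replicate 2 or 4 of the LKB1-deficient group, was left out (adjusted p up to 0.0661). With the length trend removed, Gsk3b was no longer called (log2 fold change 0.47, adjusted p = 0.0871), Huwe1 stayed called at 0.58, and Btrc, a ligase gene named here after its values were seen, was called lower (-0.50, adjusted p = 0.0472).

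In a list of mitochondrial membrane genes and their partners, 1 of 8 tested genes rose and 1 fell (median log2 fold change -0.16), beside 22.5% of all genes called. With upper quartile or total count scaling 0 rose and 2 fell, and with DESeq2 1 rose and 3 fell. Vdac1, the outer membrane channel, rose from a mean of 236 ± 34.2 to one of 371 ± 99.6 CPM, n = 4 each (log2 fold change 0.65, adjusted p = 0.0432). Mff, the fission factor that recruits DRP1 and is an AMPK substrate, fell from 134 ± 15.8 to 91.3 ± 11 CPM (-0.55, adjusted p = 0.0215). Vdac2, the channel that holds BAK1, and Tmbim6, an endoplasmic reticulum protein that inhibits BAX-induced death, had log2 fold changes of -0.08 and -0.24 (adjusted p = 0.683 and 0.271). The Vdac1 call ended without any 1 library other than LKB1-deficient replicate 1 (adjusted p up to 0.10). The Mff call ended when control replicate 3 or 4, or replicate 2 or 4 of the LKB1-deficient group, was left out (adjusted p up to 0.0661).

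Of 14 tested genes of factors and receptors acting on BCL2 family transcription, 3 rose and 1 fell, beside 22.5% of all genes called. The median log2 fold change of the 14 was 0.30. With upper quartile scaling, total count scaling, replicates 2 to 4 alone, whose sample identifiers share a prefix, or the replicate block 0 rose, while DESeq2 called 5 higher. Stat5a, the cytokine-activated factor upstream of Bcl2 and Bcl2l1, rose from 187 ± 25.1 to 269 ± 14.1 CPM (a log2 fold change of 0.53, adjusted p = 0.0233). Il7r, the receptor of the survival cytokine IL-7, rose from 115 ± 20.4 to 179 ± 43.8 CPM (0.64, adjusted p = 0.043), and Trp53, the gene of p53, from 142 ± 20.5 to 195 ± 7.20 (0.45, adjusted p = 0.0361). Ddit3, the gene of the stress factor CHOP, which induces Bcl2l11, went from 41.1 ± 9.39 to 24.1 ± 6.71 CPM (-0.76, adjusted p = 0.0377) with overlapping groups. Nfkb1 and Il2rb, an NF-kB subunit and the shared receptor chain of IL-2 and IL-15, had log2 fold changes of 0.14 and 0.63 and were not called (adjusted p = 0.52 and 0.0688). None of these 4 calls held without each single library, and with the replicate block all 4 ended (adjusted p from 0.0504 to 0.0612). That of Il7r ended without any 1 of the 8 (adjusted p up to 0.0966). That of Trp53 ended without any but control replicate 2 or LKB1-deficient replicate 1 (up to 0.113). That of Stat5a ended when control replicate 1, 2 or 3, or replicate 2 or 4 of the LKB1-deficient group, was left out (up to 0.0604). That of Ddit3 ended with control replicate 2, 3 or 4, or the same LKB1-deficient replicates, left out (up to 0.108). With control replicate 4 left out, Il2rb was called (adjusted p = 0.0147). Of the 18 called genes outside the members in these lists, 3 (Cflar, Fas and Il7r) were still called without LKB1-deficient replicates 2 and 4.

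**Figure D4:**
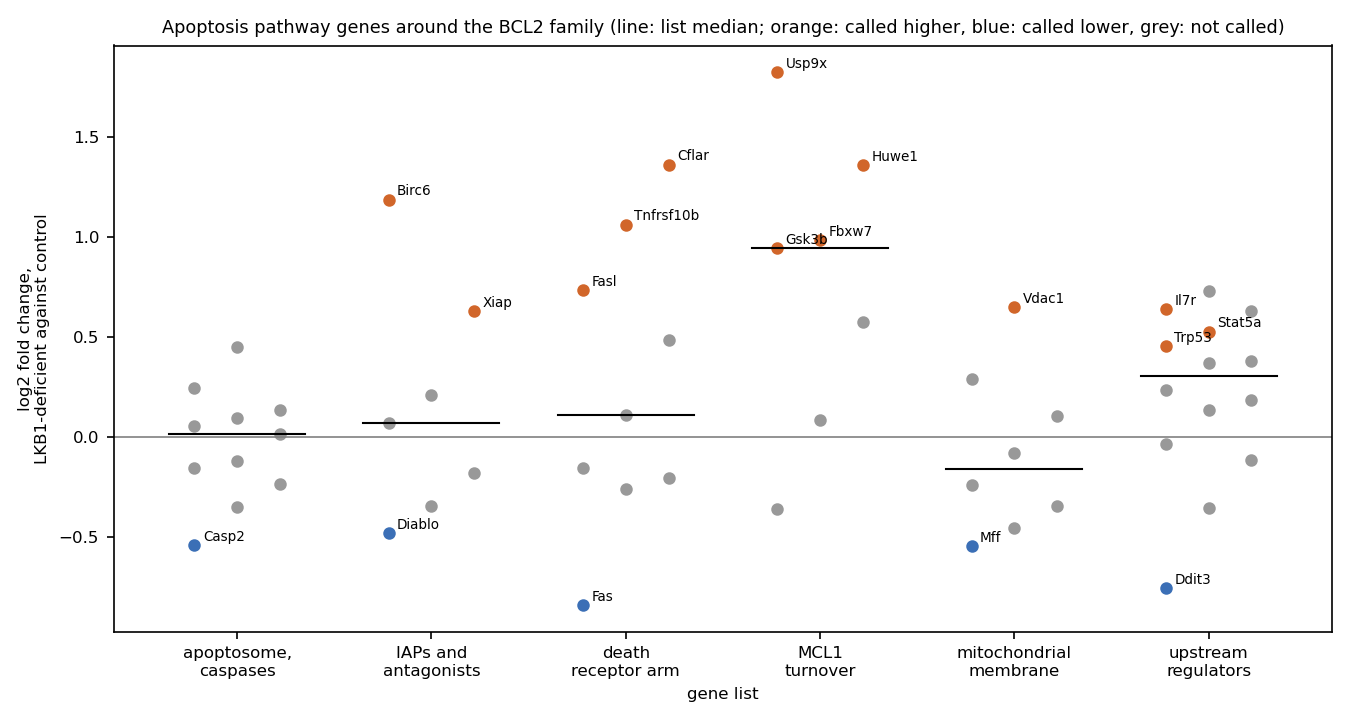
Log2 fold change of LKB1-deficient against control libraries for each tested gene of 6 lists around the BCL2 family; lines give list medians, orange genes were called higher, blue lower and grey not called. The MCL1 turnover list has its median at 0.94, and Usp9x is the highest point in the plot at 1.82.

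Markers of other cell types were looked at beside the members. Summed levels of 7 mast cell and basophil markers ran from 4.40 to 5.90 CPM in the controls and from 5.63 to 24.2 with LKB1 deficiency, highest in replicates 2 and 4. Gata2, 1 of the 7, was called higher (adjusted p = 0.0422) with overlapping groups. It was at 0.809 to 1.69 CPM in the controls and at 0.563, 9.62, 2.36 and 8.36 in LKB1-deficient replicates 1 to 4. Of 5 B cell markers, with sums of 7.47 to 12.9 and 4.88 to 9.0 CPM, Cd79b was called lower (adjusted p = 0.0164). The 9 myeloid markers summed to at most 3.21 CPM in any library, with S100a9 at 0 in all and none tested. The 3 CD4+ T cell markers summed to 6.56 to 9.08 and 3.23 to 8.72 CPM, and the 4 NK cell markers, mainly Eomes, to 66.4 to 116 and 83.9 to 154 CPM. Eomes, which is not particular to NK cells, was at 65.9 to 116 CPM in the controls and 82.9 to 151 with LKB1 deficiency. Ncr1, Klrb1c and Klrc2 were each at most at 2.04 CPM in any library and were too low to be tested. Klrb1c lay higher without overlap, at 0 to 0.227 CPM in the controls and 0.563 to 2.04 with LKB1 deficiency. Ncr1 and Klrc2 overlapped between groups, with means of 0.178 and 0.255 CPM for Ncr1 and 0.145 and 0.110 for Klrc2. CD8+ T cell markers summed to 4463 to 4834 CPM in the controls and 3043 to 4043 with LKB1 deficiency. The part of these cells in the members' values was not tested.

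**Figure D5:**
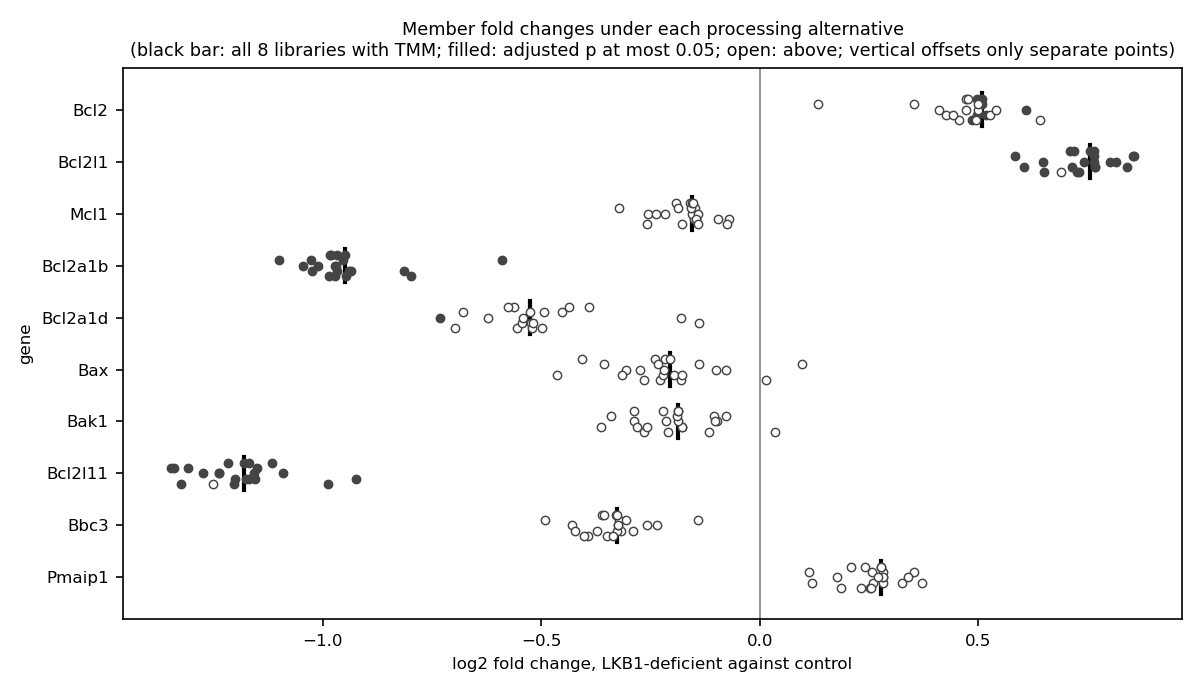
Log2 fold change of each member under up to 22 processing alternatives (points; filled where the adjusted p was at most 0.05, open where it was above) and with all 8 libraries and TMM scaling (black bars). All Bcl2a1b points are filled and lie between -1.10 and -0.59, while most Bcl2 points are open.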

How the data were processed

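The members, gene lists and tests were chosen with earlier results of these data known. Per the labels' protocols, RNA was copied with barcoded oligo-dT primers, pooled by Actb qPCR and enriched by 12 cycles of PCR. Molecular identifiers are not mentioned, and PCR copies may have been counted. The deposited values are raw counts of reads per gene symbol, made by the authors. Per the submitters' processing notes, STAR was used with mm10; the counting program is not given in the sources used here. All 5 lines that name no gene were left out, and counts outside genes were 12.1% to 17.5% per library.

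These counts were tested in edgeR 4.0.16 (R 4.3.3): filterByExpr (minimum count 10, total 15), TMM scaling, robust quasi-likelihood test of all 8 libraries without covariates, and Benjamini-Hochberg adjustment. The SE of a log2 fold change is its size divided by the square root of F. Libraries of a group differed by more than counting noise (chi-square over its degrees of freedom from 10.8), and none were merged. Replicate 4 of each group differed from the others in Xist. Whether any of the other libraries share an RNA sample was not tested. The text names all members and other family genes, called genes of each other list (up to 4 in each direction by p) and up to 2 uncalled ones with the highest mean CPM; 1 gene that this rule takes is not reported here. Coordinates and transcript lengths are from GENCODE for mm10. Alternatives used DESeq2 1.42.0 and limma 3.58.1, and a term for high Xist was added after seeing the data.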

Additional observations from a re-analysis of the deposited data

Results flagged for a closer look

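Each of 108 sets of 4 libraries (1 gene or 1 ratio of a member pair in 1 group) was searched for a library far from the other 3, by Dixon's criterion. The criterion marks about 1 in 20 such sets by chance, and it marked 3, none of them of a member. Bad was at 19.5 CPM in LKB1-deficient replicate 2, below 22.1 to 22.5 CPM in the other 3. Cflar was at 65.2 CPM in control replicate 2, above 45.3 to 47.3 CPM in the other controls, and it remained below every LKB1-deficient library. Nfkb1 was at 445 CPM in LKB1-deficient replicate 1, above 339 to 355 CPM in the other 3.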

How the results depend on the processing

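Of 217 member values over 22 alternatives, 196 kept direction and call, 17 lost the call, 1 gained it and 3 changed sign. Of 831 values of the 38 other named genes, 677 kept both, 121 lost the call, 5 gained it and 28 changed sign. Genes called numbered 3047 with DESeq2, 2224 with limma-voom, 1011 to 2825 with single libraries left out, and 260 without LKB1-deficient replicates 2 and 4; fewer libraries were fitted in the latter cases. Members called higher were 1 with upper quartile scaling, total count scaling, no filter, the replicate block, identifiers starting with EU only, equal depth or the length trend removed, 0 without LKB1-deficient replicates 2 and 4, and 1 to 2 with single libraries left out. Members called lower were 1 without LKB1-deficient replicates 2 and 4. The cause of these differences was not tested.

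With the replicate block 1902 genes were called and Bcl2 had an adjusted p of 0.0611, while Bcl2l1, Bcl2a1b and Bcl2l11 stayed called (adjusted p = 0.0295, 0.011 and 0.0125). The block also ended the calls of Stat5a, Trp53, Il7r and Ddit3 and made Bnip3l called (-0.85, adjusted p = 0.0357). The replicate numbers are not stated to pair libraries. Deviations of same-numbered libraries from their group means correlated from -0.25 to 0.30, and 2 of 4 LKB1-deficient libraries correlated best with their own number. Replicate 1 of both groups has an identifier starting with ET, and replicate 4 of both groups had high Xist.

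The log2 fold changes that changed sign were as follows, none of them called with all 8 libraries and TMM. Without LKB1-deficient replicates 2 and 4 they were 0.013 for Bax, 0.034 for Bak1, 0.24 for Bnip3, -0.11 for Aifm1 and -0.036 for Trib1. With the length trend removed they were 0.096 for Bax, 0.016 for Bcl2l12, -0.34 for Bcl2l13 and 0.072 for Vdac2. With upper quartile scaling they were -0.084 for Bcl2l13, -0.090 for Aifm1 and -0.019 for Ppp2r1a. With total count scaling they were -0.15 for Bcl2l13, -0.16 for Aifm1, -0.060 for Casp8, -0.075 for Ppp2r1a and -0.022 for Nfkb1. With no filter and with a mean CPM of at least 10 they were -0.022 and -0.0096 for Bcl2l13 and -0.024 and -0.011 for Aifm1. At equal depth Bcl2l13 was at -0.11, and with EU identifiers only Ppp2r1a was at -0.032 and Nfkb1 at -0.037. Leaving out single libraries gave -0.030 to 0.054 for Bcl2l13, -0.063 to 0.12 for Aifm1 and -0.017 to 0.14 for Ppp2r1a. Depth limits low genes such as Bcl2l14, with 4 to 6 counts in the LKB1-deficient libraries, which could be tested in 18 of 22 alternatives.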
